A study of Mus musculus with 68 samples.

Results

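The MHC class II presentation genes were described across the specimens of an RNA sequencing study of Cftr and Apc in the mouse intestine. The set was given as gene symbols, H2-Aa, H2-Ab1, H2-Eb1, Cd74, H2-DMa, H2-DMb1, H2-DMb2, H2-Oa, H2-Ob and Ciita, and all 10 were found among the 23356 rows of the expression table. All 10 also passed the filter that left 14098 genes for testing. The values are FPKM, fragments scaled by transcript length and by all mapped fragments, so levels can be compared between genes.

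The study asked which genes and pathways go with Cftr deficiency in Apc wildtype and in ApcMin mice. Cftr encodes an epithelial chloride and bicarbonate channel, Apc a negative regulator of Wnt signalling, and carriers of the Min allele of Apc develop intestinal tumours. The 23 specimens formed 12 groups of C57BL/6 mice aged 3 months, with 10 animal numbers in all. From Apc wildtype mice came normal colon and normal duodenum, 2 specimens each with wildtype Cftr and 2 each labelled Cftr knockout, together with 2 duodenal tumours and 1 colon tumour, all 3 labelled knockout. All specimens of ApcMin mice were tumours: of colon and of ileum with wildtype Cftr, the same organs labelled Cftr knockout, and colon and duodenum with heterozygous Cftr (labelled a knockdown), 2 tumours in each group. The knockout of the Apc wildtype mice is a floxed Cftr allele cut by Cre under the Villin promoter, which is active in intestinal epithelium, whereas for ApcMin mice no Cftr allele is named. The tumours of an ApcMin group carried 1 animal number, so Cftr genotype and animal cannot be told apart in those mice, and colon and ileum tumours of the same Cftr genotype came from the same animal where it was wildtype or knockout. The heterozygous colon tumours and the heterozygous duodenal tumours came from different animals, so organ and animal cannot be told apart between them. Normal colon and normal duodenum with the same replicate number also came from 1 animal.

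Class II molecules hold peptides from engulfed proteins on the cell surface for CD4 T cells to read. H2-Aa and H2-Ab1 encode the chains of I-A, H2-Eb1 the beta chain of I-E, and Cd74 the invariant chain that escorts new class II molecules to endosomes. There H2-DM, made of an alpha chain from H2-DMa and a beta chain from H2-DMb1 or H2-DMb2, exchanges the invariant chain remnant for peptide, and H2-O, made from H2-Oa and H2-Ob, restrains H2-DM. Ciita encodes the coactivator that switches the other genes on. Dendritic cells, B cells and macrophages express the pathway, H2-O is best known from B cells and thymus, and intestinal epithelial cells express class II to a degree that varies along the gut and with interferon gamma.

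Several facts of the whole series bear on these values. Relative depth over the 68 columns spanned a 1.83-fold range. Cftr RNA ranged from 11.2 to 77.2 FPKM under the knockout label (11 specimens), from 18.0 to 32.0 FPKM in wildtype (8) and from 9.58 to 51.7 FPKM in heterozygous specimens (4), and a gene-level value over a floxed allele does not check a label. Normal colon is labelled whole tissue and normal duodenum epithelium, whereas the series' own design text has it the other way round, with epithelial cells of colon and duodenum without villi. By markers neither was pure epithelium. The summed level of 8 smooth muscle genes was 2379 to 2998 FPKM in normal colon and 807 to 875 FPKM in normal duodenum, and that of 6 pan-leukocyte genes was 80.7 to 208 FPKM and 98.1 to 230.2 FPKM. Small-intestinal enterocyte genes told the organs apart, at 468 to 1522 FPKM in normal colon and 27190 to 29588 FPKM in normal duodenum. Between the runs wildtype colon 2 differed by an SD of 0.459 over 9420 genes, against 0.139 to 0.210 in the other specimens read in both runs. Its run 1 library enters the wildtype colon values wherever run 1 columns are used. That library was left out of some fits below for small-intestinal transcripts, whose level by run is not given here. Organ and labelled tissue type coincide in the normal specimens and cannot be told apart. Xist, an RNA of the inactive X of females, was at 24.04 FPKM or more in all 12 ApcMin specimens and in 1 of the 11 Apc wildtype ones, and at 0.461 FPKM or less in the rest, so Apc genotype and sex largely coincide. The wildtype duodenum specimens differed by no more than their lanes did in run 1 and were counted as 1 sample, except in the fits with a block or where stated. In bulk RNA, fewer cells of a type and less RNA per cell cannot be told apart.

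Class II RNA was detected in every specimen, and the 10 genes lay at different levels. Cd74 (build GRCm38, chromosome 18, 60803848 to 60812652, plus strand) was the highest, at 84.4 to 1546 FPKM with a median of 402 FPKM. H2-Aa ranged from 31.7 to 559 FPKM, H2-Ab1 from 26.6 to 509.6 FPKM and H2-Eb1 from 14.6 to 240.1 FPKM. The peptide exchange genes were lower, H2-DMa at 2.88 to 42.3 FPKM and H2-DMb1 at 3.57 to 70.0 FPKM. H2-DMb2 (0.386 to 16.3 FPKM), H2-Oa (0.127 to 8.80 FPKM), H2-Ob (0.135 to 11.2 FPKM) and Ciita (0.336 to 9.78 FPKM) were lower again. The ratio of the highest to the lowest specimen was 14.7 to 19.6 for H2-Aa, H2-Ab1, H2-Eb1, Cd74, H2-DMa and H2-DMb1, 29.1 for Ciita, 42.2 for H2-DMb2, 69.2 for H2-Oa and 82.9 for H2-Ob.

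**Figure D1:**
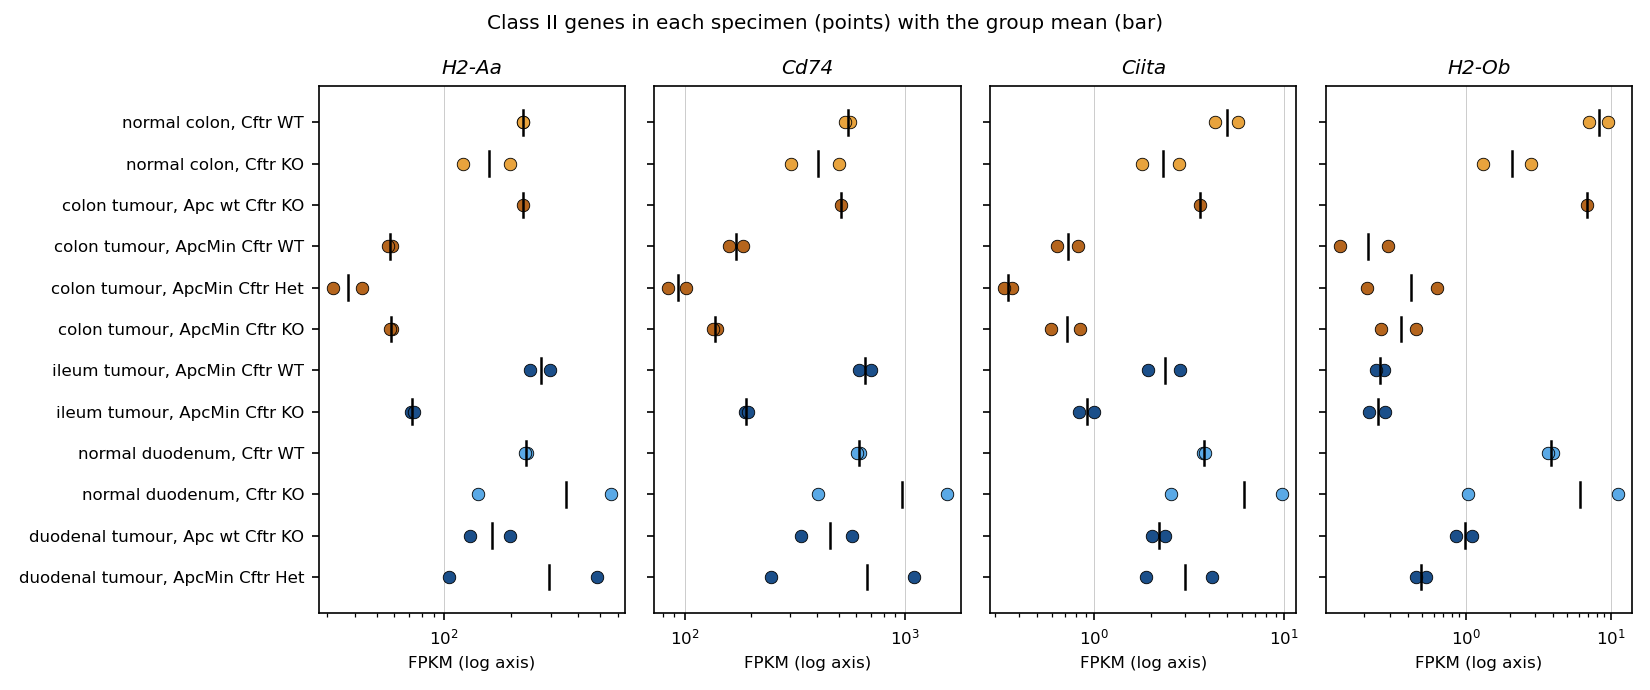
FPKM on log axes of H2-Aa, Cd74, Ciita and H2-Ob in every specimen (points), with the group mean as a bar; light and dark orange are normal colon and colon tumours, light and dark blue normal duodenum and small-intestinal tumours. The 6 ApcMin colon tumours hold the lowest H2-Aa levels, at 31.7 to 58.7 FPKM, while the ileum tumours with wildtype Cftr reach 242 and 299.5 FPKM of H2-Aa with 0.240 and 0.274 FPKM of H2-Ob.

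Of the 10 genes, 8 lie in the MHC on chromosome 17 (build GRCm38, GENCODE vM21), in the order H2-Oa (34092340 to 34095234), H2-DMa (34119541 to 34139101), H2-DMb2 (34143307 to 34151555), H2-DMb1 (34153072 to 34160230), H2-Ob (34238903 to 34254414), H2-Ab1 (34257689 to 34269419), H2-Aa (34282744 to 34287823) and H2-Eb1 (34305867 to 34316674). H2-Aa is on the minus strand and the others are on the plus strand. Ciita is on chromosome 16 (10480059 to 10528418, plus strand). H2-Eb1, H2-Oa and H2-DMa overlap annotated antisense genes, H2-DMa also Brd2, and Ciita overlaps Dexi. No source states whether counting used strand, so reads in the overlaps cannot be assigned. H2-DMb1 and H2-DMb2 share sequence: 27.2% of the 50-base stretches of the longest H2-DMb1 coding transcript and 29.5% of those of H2-DMb2 occur in the other or in a further gene, so their split is uncertain. The other 8 members shared no such stretch with another gene.

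Promoters of this family carry an X box and a Y box, bound by the RFX and NF-Y complexes on which CIITA docks. RefSeq promoter sequences (GRCm38.p6, 250 bases before each start) were at hand for 7 members with 8 starts. The X box core was searched as CNNNNAAC and the Y box as GATTGG, 24 to 28 bases apart and on both strands, with the spacing read from these promoters themselves. The pair was found upstream of H2-Aa, H2-Eb1, H2-DMb1, H2-DMb2, H2-Oa and H2-Ob, each before a RefSeq start, and at neither start listed for H2-DMa. For H2-DMb1 and H2-DMb2 the match itself lies inside the GENCODE span given above, so it is upstream of the RefSeq start only. All 57 bases of the H2-DMb1 window and the last 9 of the H2-Oa window are annotated as exon. Among all 32851 starts 0.259% held it. 5 of the windows are shown because genes of both expression patterns described below carry the same arrangement; capitals mark the X box core and the Y box, 5′ to 3′ along the gene.
H2-Aa (chr17:34287859-34287915, minus strand): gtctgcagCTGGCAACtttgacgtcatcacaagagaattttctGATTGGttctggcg
H2-Eb1 (chr17:34305765-34305820, plus strand): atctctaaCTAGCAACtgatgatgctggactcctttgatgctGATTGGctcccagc
H2-DMb2 (chr17:34145115-34145171, plus strand): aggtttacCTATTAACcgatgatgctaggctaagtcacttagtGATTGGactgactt
H2-Oa (chr17:34092292-34092348, plus strand): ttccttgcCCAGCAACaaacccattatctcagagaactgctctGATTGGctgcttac
H2-Ob (chr17:34238807-34238860, plus strand): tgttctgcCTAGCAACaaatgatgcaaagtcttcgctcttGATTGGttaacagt
The Y box starts 44 to 91 bases before the RefSeq start in these 5. A match is a string of letters and was not tested for binding.

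Over all organs the members fell into 2 blocks with Ciita between them, a division seen less within colon. Over 22 samples (wildtype duodenum as 1), the log2 levels of H2-Aa correlated with those of H2-Ab1 at r = 0.993, Cd74 at r = 0.994, H2-Eb1 at r = 0.989, H2-DMa at r = 0.969 and H2-DMb1 at r = 0.948. H2-Ob correlated with H2-DMb2 at r = 0.988 and with H2-Oa at r = 0.971, but with H2-Aa at r = 0.596. Ciita correlated with H2-Aa at r = 0.932 and with H2-Ob at r = 0.807. Within the 11 colon samples H2-Ob correlated with H2-Aa at r = 0.926, with H2-DMa at r = 0.942 and with Ciita at r = 0.961, and within the 11 small-intestinal ones with H2-Aa at r = 0.529. These samples share animals, runs and controls, and the coefficients are descriptions. Ratios of levels show the same: H2-Aa over H2-Ab1 stayed within 1.03 to 1.43 and Cd74 over H2-Aa within 2.26 to 3.14 in the 23 specimens, whereas H2-DMb2 over H2-DMb1 ran from 0.0238 to 1.25.

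**Figure D2:**
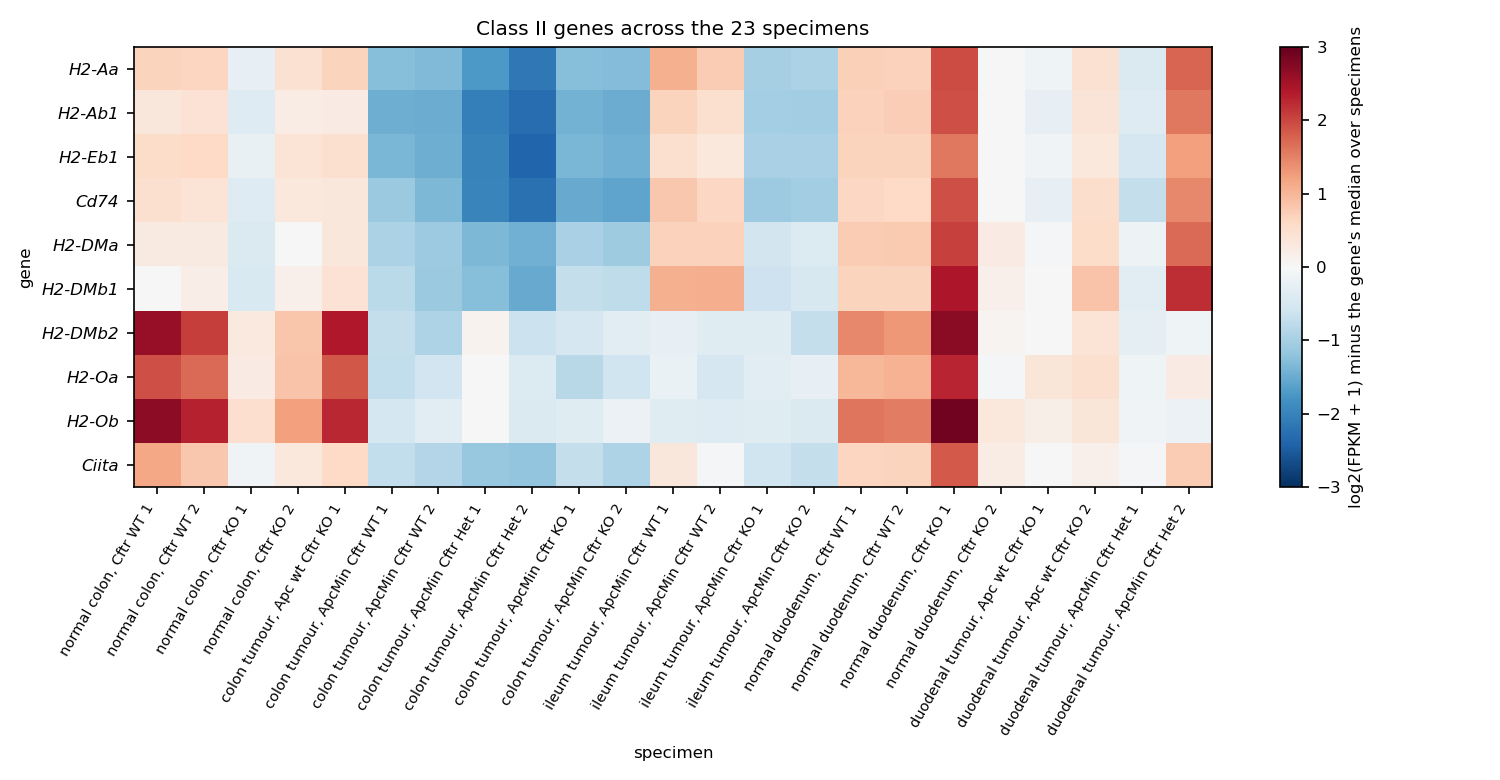
Heatmap of the 10 genes (rows) in the 23 specimens (columns) as log2(FPKM + 1) minus each gene's median over specimens. H2-Aa, H2-Ab1, H2-Eb1, Cd74, H2-DMa and H2-DMb1 share a pattern, and H2-DMb2, H2-Oa and H2-Ob share another. Knockout duodenum 1 is the highest specimen in both. Wildtype normal colon and the colon tumour without ApcMin are at or above the median in both, and by group mean lead the second. The ileum tumours with wildtype Cftr are above the median in the first pattern and below it in the second. Heterozygous duodenal tumour 2 is also high in the first.

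H2-DMb2, H2-Oa and H2-Ob went with B cell genes and, with lower coefficients, with other leukocyte genes. With the mean log2 level of 11 tested B cell genes H2-Ob correlated at r = 0.991 (rho = 0.903), H2-DMb2 at r = 0.981 and H2-Oa at r = 0.977. For H2-Ob the coefficient was 0.984 without the 2 samples farthest out, 0.992 in the 11 colon samples and 0.989 in the 11 small-intestinal ones. Ms4a1, which encodes the B cell antigen CD20, was at 14.1 and 9.35 FPKM in wildtype normal colon, where H2-Ob was at 9.58 and 7.06 FPKM. In knockout duodenum 1 Ms4a1 was at 13.3 FPKM and H2-Ob at 11.2 FPKM, and in knockout duodenum 2 they were at 0.688 and 1.04 FPKM. Cd74 correlated with the B cell genes at r = 0.594 (rho = 0.466), with 0.882 in colon and 0.598 in small intestine. With 6 pan-leukocyte genes r was 0.912 for H2-DMb2, 0.941 for H2-Oa and 0.894 for H2-Ob, and 0.639 for Cd74. With 11 T cell genes r was 0.809 for Cd74, 0.877 for H2-DMa and 0.427 for H2-Ob over all samples. Within each organ Cd74 and H2-Ob did not part in this way, at 0.905 and 0.942 in colon and at 0.673 and 0.671 in small intestine. With 8 tested dendritic cell genes r was 0.858 for H2-DMb2, 0.878 for H2-Oa and 0.857 for H2-Ob. Cd74 correlated with them at r = 0.762, at 0.964 within colon and 0.456 within small intestine, and with 11 macrophage genes at r = 0.314. The part of any cell type in these levels was not tested.

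**Figure D3:**
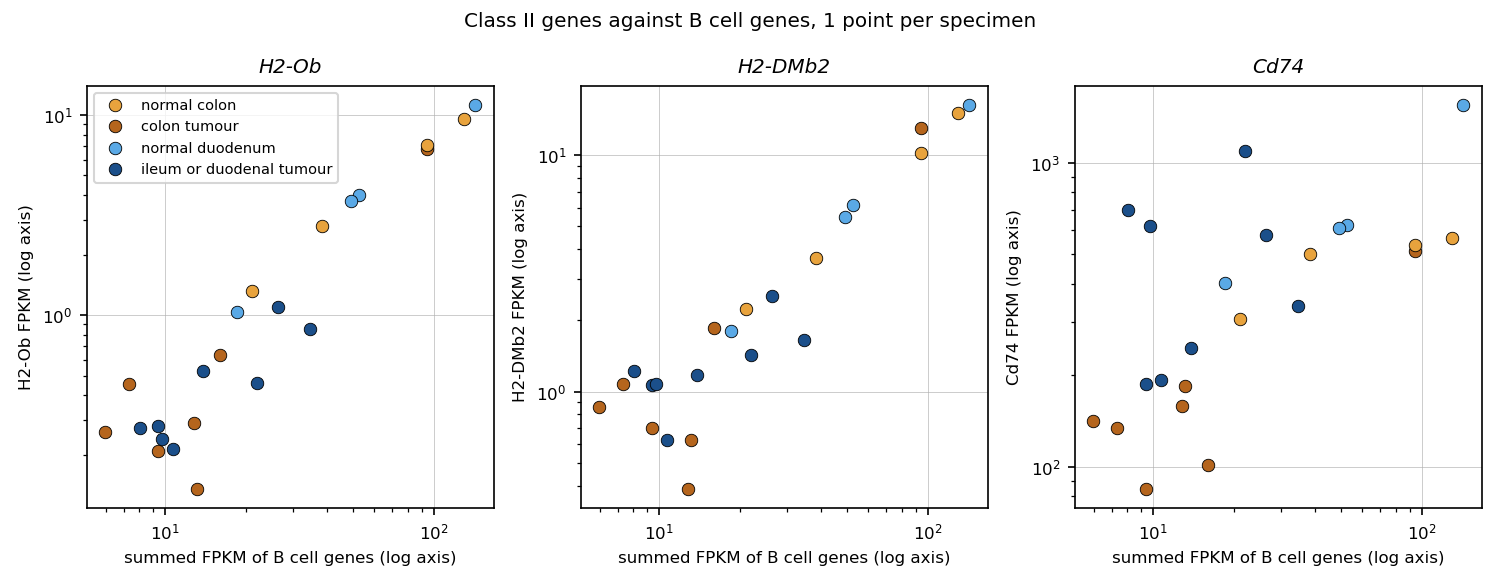
H2-Ob, H2-DMb2 and Cd74 (FPKM) against the summed FPKM of the B cell genes, both on log axes, with 1 point per specimen coloured by organ and tissue. H2-Ob and H2-DMb2 follow the B cell sum, while Cd74 at the low end of that sum ranges from 84.4 FPKM in a colon tumour to 701 FPKM in an ileum tumour.

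The 10 genes whose log2 levels most resembled the mean of the members were Gimap4 (r = 0.928 over 22 samples), Gimap8, Traf3ip3, Agap2, Skap1, Il27ra, Sash3, Rhoh, Rasgrp1 and Ms4a4b (r = 0.897). The 5 nearest to Ciita alone were Gimap8 (r = 0.950), Gimap4, Agap2, Rhoh and Il27ra (r = 0.925).

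In ApcMin colon tumours class II RNA was lower than in normal colon. With wildtype Cftr, H2-Aa was at 58.7 and 55.9 FPKM in the tumours and at 226 and 225 FPKM in normal colon. Cd74 was at 184 and 159 FPKM against 564 and 535 FPKM, and Ciita at 0.823 and 0.634 FPKM against 5.74 and 4.30 FPKM. H2-Ob, the H2-O beta chain, was at 0.135 and 0.288 FPKM against 9.58 and 7.06 FPKM. No tumour value reached a normal one for any of these 4 genes. In the run 2 columns, the run that holds both groups, 9 of the 10 members fell (limma with Benjamini-Hochberg adjustment over all genes tested, adjusted p of 0.05), while 38% of all tested genes were called. The largest log2 changes were those of H2-DMb2 (-3.09, SE 0.60, adjusted p = 0.00347), H2-Ob (-2.92, SE 0.58, adjusted p = 0.00381) and H2-Oa (-2.37, SE 0.53, adjusted p = 0.00646). The other called changes were -1.96 for H2-Eb1, -1.94 for H2-Aa, -1.80 for H2-Ab1, -1.78 for Ciita, -1.69 for Cd74 and -1.25 for H2-DMa on the log2(FPKM + 1) scale, which understates the change of low genes. H2-DMb1, with a change of -0.95, did not pass (adjusted p = 0.199). The members' median change was -1.87 and that of all tested genes -0.0013.

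Other lists moved with this comparison. All 11 B cell genes fell (median -2.38), as did all 8 smooth muscle genes (median -3.08), 6 of 8 dendritic cell genes (median -0.67), 6 of 11 T cell genes (median -0.63) and 4 of 6 pan-leukocyte genes. Of the 11 macrophage genes 2 fell and 1 rose (median -0.11), and of the 10 epithelial genes 1 fell and 1 rose. The summed B cell level was 12.8 and 13.2 FPKM in the tumours against 93.8 to 129 FPKM in normal colon, and the smooth muscle sum was 117 and 974 FPKM against 2787 to 2990 FPKM. Of 12 class I presentation genes 10 fell and 1 rose, among the falls the transporter subunit Tap2 (-1.25) and the class I light chain B2m (-1.23). Of 15 regulators of class II genes and of the interferon gamma axis 4 fell and 1 rose, with the RFX subunit Rfxank at -0.96, the transcription factor Irf1 at -0.81, the receptor chain Ifngr1 at -0.75 and the NF-Y subunit Nfyb at 0.56. In the endosome, the invariant chain protease Ctss fell (-1.39), as did Ifi30, a thiol reductase (-0.71), and the asparaginyl protease Lgmn rose (0.83). Sex, Apc genotype and tumour state all differ between the groups, and cannot be told apart. Leaving out wildtype colon 2 left 5 of the members called, and leaving out colon tumour 1 left 6.

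In colon tumours labelled Cftr knockout the levels lay close to those of the wildtype tumours. H2-Aa was at 58.7 and 57.3 FPKM, Cd74 at 141 and 134 FPKM, Ciita at 0.844 and 0.593 FPKM and H2-Ob at 0.262 and 0.454 FPKM. Against knockout normal colon (H2-Aa at 121 and 197 FPKM, Cd74 at 306 and 500 FPKM) all 10 changes were negative in run 2, with a median of -1.29. H2-Eb1 alone fell (-1.47, SE 0.37, adjusted p = 0.0323), from 68.8 and 106 FPKM in normal colon to 30.2 and 29.0 FPKM, beside 10.9% of all tested genes called. That call was lost on leaving out any 1 of the 4 specimens. Of the 11 B cell genes 0 passed in this comparison (median -0.85), of the 8 dendritic cell genes 2 fell, of the 11 macrophage genes 3, of the 11 T cell genes 2 and of the 12 class I genes 2. Of 13 small-intestinal enterocyte genes 7 rose in these tumours (median 1.71). Their summed level overlapped, at 661 to 1049 FPKM in the tumours and 641 to 1208 FPKM in knockout normal colon over all columns. All 8 smooth muscle genes were negative (median -2.59), and 1 of them fell. Between knockout and wildtype colon tumours 0 members passed (0.0638% of all tested genes called), with a median change of 0.02 and changes from -0.31 to 0.39.

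The colon tumours of Cftr heterozygous ApcMin mice were both from 1 animal. By group means they were the lowest of all groups for H2-Aa, H2-Ab1, H2-Eb1, Cd74, H2-DMa, H2-DMb1 and Ciita. They were read in run 1 only, and the other ApcMin colon tumours in run 2 only. H2-Aa was at 42.8 and 31.7 FPKM, Cd74 at 102 and 84.4 FPKM and Ciita at 0.371 and 0.336 FPKM, all below every other specimen. H2-DMb2 (1.85 and 0.701 FPKM), H2-Oa (0.515 to 1.01 FPKM) and H2-Ob (0.634 and 0.209 FPKM) were not the lowest there. Against the 4 normal colon specimens in run 1, 7 members fell, beside 53.2% of all tested genes. The changes were -2.55 for H2-Eb1 (SE 0.53, limma adjusted p = 0.00437), -2.35 for H2-Ab1, -2.30 for H2-Aa, -2.29 for Cd74, -1.84 for H2-Ob, -1.74 for H2-DMb2 and -1.67 for Ciita. H2-DMa (-1.45), H2-DMb1 (-1.45) and H2-Oa (-1.36) did not pass. Of the 12 class I genes 11 fell, and of the 15 regulators and interferon gamma axis genes 6 fell and 1 rose. All 8 smooth muscle genes fell too (median -2.14). Of the 11 B cell genes 3 fell, of the 8 dendritic cell genes 5 and of the 10 epithelial genes 7, while 1 epithelial gene rose. Fewer than 7 members passed without either tumour, without knockout colon 2 and without the run 1 library of wildtype colon 2.

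**Figure D4:**
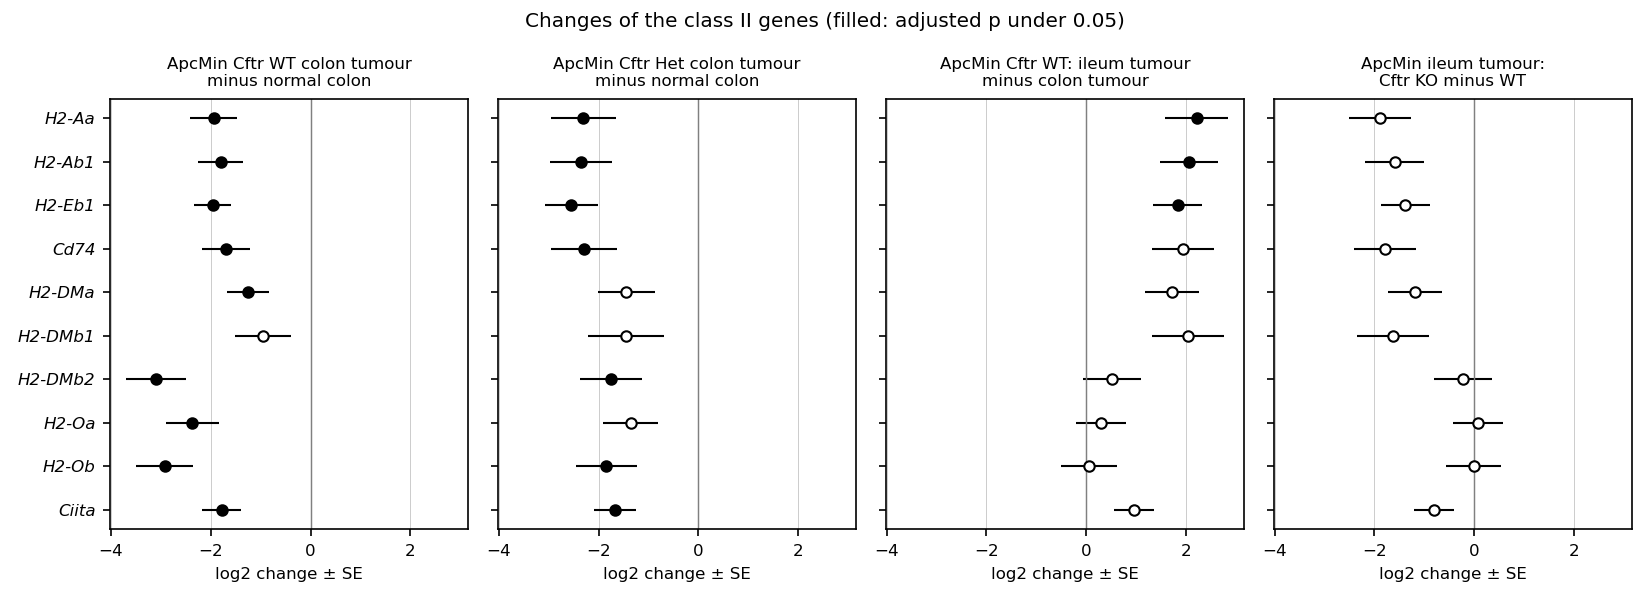
Log2 changes of the 10 genes with their standard errors in 4 comparisons; filled points have an adjusted p under 0.05. In both comparisons of colon tumours with normal colon every change is negative; from colon to ileum tumour H2-Aa is at 2.21 and H2-Ob at 0.06, and with Cftr label in the ileum, where no point is filled, H2-Aa is at -1.89 and H2-Ob at -0.01.

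Small-intestinal ApcMin tumours did not share the low class II levels of colon tumours, except in the ileum of the animal labelled knockout. In the wildtype animal, ileum tumours held H2-Aa at 299.5 and 242 FPKM and colon tumours at 58.7 and 55.9 FPKM. H2-Ab1 was at 212 and 187 FPKM against 47.7 and 46.7 FPKM and H2-Eb1 at 112 and 100.3 FPKM against 30.1 and 28.2 FPKM. These 3 genes rose, by 2.21 (SE 0.62, adjusted p = 0.0378), 2.05 (SE 0.58, adjusted p = 0.0384) and 1.83 (SE 0.50, adjusted p = 0.0320), beside 11.7% of all tested genes called. Cd74, at 701 and 618 FPKM against 184 and 159 FPKM, had a change of 1.94 and did not pass (adjusted p = 0.0641), nor did H2-DMa (1.72), H2-DMb1 (2.03) and Ciita (0.95). H2-DMb2 (0.52), H2-Oa (0.29) and H2-Ob (0.06, and -0.047 after quantile normalisation) had the smallest differences. All 4 tumours are from 1 animal, and the 3 calls were lost on leaving out any 1 of them and without the filter on low values.

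In the same comparison 12 of 13 small-intestinal enterocyte genes rose. Of 11 B cell genes 0 passed (median 0.0015), of 8 dendritic cell genes 0 (median 0.18), of 11 macrophage genes 0 (median 0.058), and of 11 T cell genes 3 rose. The summed B cell level was 8.05 and 9.72 FPKM in ileum and 12.8 and 13.2 FPKM in colon tumours. Of 10 epithelial genes 2 rose. Of the 12 class I genes 4 rose, B2m by 1.51, the proteasome subunit Psmb8 by 1.03, H2-K1 by 0.98 and the loading factor Tapbp by 0.52. Of the 15 regulators and interferon gamma axis genes 1 rose, the kinase Jak2 (0.68).

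In the animal labelled Cftr knockout the ileum tumours held H2-Aa at 71.2 and 73.2 FPKM, Cd74 at 188 and 193 FPKM and Ciita at 0.996 and 0.834 FPKM. Each of these values was below both values of the wildtype ileum tumours (H2-Aa 299.5 and 242, Cd74 701 and 618, Ciita 2.82 and 1.91 FPKM). H2-DMb1, the H2-DM beta chain, was at 7.56 and 8.45 FPKM against 26.4 and 27.0 FPKM. H2-Ob was at 0.278 and 0.215 FPKM against 0.274 and 0.240 FPKM, with no separation. The log2 changes were -1.89 for H2-Aa (SE 0.62), -1.78 for Cd74 (SE 0.62), -0.80 for Ciita and -0.01 for H2-Ob, with a median of -1.28 over the 10. By limma 0 of the 10 passed (adjusted p = 0.468 or above), beside 0.121% of all tested genes called. H2-Aa and Cd74 had unadjusted limma p values of 0.0102 and 0.0137, and 825 of the 14098 tested genes had one under 0.05. Fitted on these groups alone, where the spread came from these tumours only, 6 members were among the 120 genes that passed. Each Cftr label is 1 animal here, so that spread is not one between animals. None of the 15 regulators, 12 class I genes or 11 T cell genes passed, with medians of 0.04, 0.077 and -0.10, and the 11 macrophage genes were all negative (median -0.48) with 0 past the test.

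From colon to ileum tumours of the knockout animal 0 members passed (13.4% of all tested genes called), with a median of 0.37. The difference between organs in the change with Cftr label, an interaction added after the data were seen, had a median of -1.29 and was -1.90 for H2-Aa. It passed for 0 of the 10 members (adjusted p = 0.935 or above) and for 0% of all tested genes, with 676 at an unadjusted p under 0.05.

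The duodenal tumours of heterozygous ApcMin mice, from 1 other animal, differed widely from each other. Tumour 1 held H2-Aa at 106 FPKM, Cd74 at 246 FPKM, H2-DMb1 at 9.51 FPKM and Ciita at 1.88 FPKM. Tumour 2 of the same animal held 484, 1094, 60.2 and 4.14 FPKM. H2-DMb2 (1.18 and 1.43 FPKM), H2-Ob (0.530 and 0.457 FPKM) and Ms4a1 (0.383 and 0.315 FPKM) hardly differed between these tumours. By genes picked after their values were seen, tumour 2 also had more of Cd3e, a T cell receptor subunit (6.50 against 3.08 FPKM), of Irf1 (148 against 71.2 FPKM) and of Nlrc5, the class I counterpart of Ciita (2.07 against 0.734 FPKM). Against the heterozygous colon tumours in run 1, 6 members rose, beside 40.1% of all tested genes called. Those colon tumours came from another animal, so organ and animal cannot be told apart. The rises were 2.78 for H2-Ab1 (limma adjusted p = 0.0158), 2.59 for H2-Aa, 2.55 for H2-Eb1, 2.47 for Cd74, 2.17 for H2-DMa and 1.51 for Ciita. H2-DMb1 (2.35) did not pass, and H2-DMb2, H2-Oa and H2-Ob lay between 0.06 and 0.27. Without duodenal tumour 2, and also without colon tumour 2, 0 passed, and without colon tumour 1 only 1. Of the 12 class I genes 11 rose there, of the 15 regulators and interferon gamma axis genes 8 rose and 1 fell, and of the 11 T cell genes 8 rose, while 1 of 11 B cell genes did. Of 13 enterocyte genes 12 rose.

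Against normal duodenum in run 1 these tumours gave 0 calls among the members (19% of all tested genes called, median -0.42), with the lowest changes for H2-Ob (-1.75), H2-DMb2 (-1.60) and H2-Oa (-1.17). The median turned to 0.55 without tumour 1 and to 0.033 without knockout duodenum 1, within a range of -1.33 to 0.55 over the specimens left out. The duodenal tumours of Apc wildtype mice labelled knockout held H2-Aa at 131 and 198 FPKM, Cd74 at 338 and 578 FPKM, Ciita at 2.02 and 2.36 FPKM and H2-Ob at 0.858 and 1.11 FPKM, and they came from different animals. They did not differ from the heterozygous ones by the test (0 of 10 members, 1.32% of all tested genes called, median -0.24, and 0.56 without heterozygous tumour 2).

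Normal duodenum labelled knockout held the highest and nearly the lowest class II levels of normal tissue. Specimen 1 had H2-Aa at 559 FPKM, Cd74 at 1546 FPKM, Ciita at 9.78 FPKM and H2-Ob at 11.2 FPKM. Specimen 2 had 143, 402, 2.54 and 1.04 FPKM. The wildtype specimens lay between, with H2-Aa at 234 and 231 FPKM, Cd74 at 623 and 609 FPKM, Ciita at 3.74 and 3.83 FPKM and H2-Ob at 4.00 and 3.71 FPKM. B cell genes went along, with a sum of 143 FPKM in specimen 1, 18.4 FPKM in specimen 2 and 49.1 to 52.7 FPKM in wildtype, while T cell genes summed to 117 to 130 FPKM in knockout and 128 FPKM in wildtype duodenum. The colon of the same animals ran the other way, with H2-Aa at 121 FPKM in animal 1 and 197 FPKM in animal 2. So 0 of the 10 members had the same order of these 2 animals in both organs, against 6 of 10 for the wildtype animals. Over all 14098 tested genes the deviations in the 2 organs correlated at r = 0.0332 in knockout mice, and the share with the same order was not counted. The members vary together, so the count is not 10 separate observations.

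With Cftr label in normal duodenum 0 members passed and 0% of all tested genes, with 368 genes at an unadjusted p under 0.05. All 10 changes were positive, with a median of 0.26, which was -0.69 without specimen 1 and 1.26 without specimen 2. In normal colon, where H2-Ob was at 1.32 and 2.81 FPKM in knockout and 9.58 and 7.06 FPKM in wildtype, 0 members and 0% of all tested genes passed, with 948 genes at an unadjusted p under 0.05. H2-DMb2 had the largest difference (-1.79, SE 0.58, adjusted p = 0.536), at 2.24 and 3.69 FPKM against 15.1 and 10.2 FPKM, then H2-Ob (-1.64) and H2-Oa (-1.26), and Cd74 was at -0.49. The 11 B cell genes were all negative there (median -1.64, 0 past the test), and their sum was 21.0 to 38.4 FPKM in knockout and 93.8 to 129 FPKM in wildtype colon. The difference between duodenum and colon in the Cftr change had a median of 0.86 and passed for 0 members and 0% of all tested genes. The median was -0.090 without knockout duodenum 1 and 1.91 without knockout duodenum 2, and either fit leaves 1 knockout duodenum specimen.

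Normal duodenum and normal colon, which differed in 34.6% of all tested genes with wildtype Cftr and in 45.7% when labelled knockout, differed in 0 members by the test. The wildtype duodenum enters as 1 merged sample. Some members passed with wildtype Cftr when the compared groups were fitted alone. The share of all tested genes in that fit is not given here, so this is not a result about the members. For knockout tissue 1 member passed after quantile normalisation and 1 in run 2 alone. With wildtype Cftr H2-Aa was at 234 and 231 FPKM in duodenum and 226 and 225 FPKM in colon, and Cd74 at 623 and 609 FPKM against 564 and 535 FPKM. H2-DMa, at 16.9 and 17.2 FPKM, was above both colon values of 11.6 FPKM (log2 change 0.52), and H2-DMb2, at 6.17 and 5.48 FPKM, was below the colon values of 15.1 and 10.2 FPKM (-0.98). In knockout tissue H2-DMa (1.36, adjusted p = 0.0549) and Ciita (0.93, adjusted p = 0.0748) came nearest to the threshold. With the animal as a block, a fit on the normal specimens alone that takes the wildtype duodenum as 2 specimens, 8130 genes and 0 members passed with wildtype Cftr. Without the block 4874 genes passed with these merged and 6708 with them as 2 specimens, so the rise is not that of the block alone. Without knockout duodenum 2, which leaves specimen 1 alone on that side, the members' median was 2.0 in place of 0.90. The lowest median over the specimens left out was -0.026.

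Tumours of Apc wildtype mice labelled knockout were compared with the knockout normal tissue. In the single colon tumour H2-Aa was at 226 FPKM, Cd74 at 513 FPKM and Ciita at 3.59 FPKM, each above both normal colon values. H2-DMb2 was at 13.1 FPKM, H2-Oa at 6.32 FPKM and H2-Ob at 6.79 FPKM, against 2.24 and 3.69, 1.37 and 2.66, and 1.32 and 2.81 FPKM in normal colon. The changes were 1.86 for H2-DMb2 (adjusted p = 0.0997) and 1.39 for H2-Ob (adjusted p = 0.180), and 0 members passed beside 12.8% of all tested genes. The B cell sum of this tumour was 94.3 FPKM, and 7 of 11 macrophage genes (median 0.85) and the costimulatory genes Cd86 (0.90) and Cd80 (0.91) rose in it. Of 7 fibroblast genes 5 rose (median 1.27), with a sum of 1037 FPKM against 338 to 410.4 FPKM in knockout normal colon, and of 7 endothelial genes 4 rose (median 0.53). With 1 tumour, these p-values and calls take the spread of the tumour side from other groups. This was the only colon tumour with class II levels of normal colon, and as the only one from an Apc wildtype mouse it cannot be told apart from its animal. In the duodenal tumours 0 members passed (8.16% of all tested genes called). All 10 changes were negative (median -0.88). Leaving out knockout duodenum 2 gave a median of -1.83 and leaving out knockout duodenum 1 a median of 0.11, and either fit leaves 1 normal specimen. Of the 12 class I genes 5 fell in these tumours, with Tap1 at -1.40, Psmb9 at -1.24, Psmb8 at -1.14 and Tap2 at -0.99.

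By group means the order of Cd74 began with knockout duodenum (974 ± 809 FPKM, SD, n = 2), heterozygous duodenal tumours (670 ± 600 FPKM), wildtype ileum tumours (659 ± 58.2 FPKM) and wildtype duodenum (616 ± 9.38 FPKM), each overlapping with the next. Wildtype colon (549 ± 20.2 FPKM), the Apc wildtype colon tumour (513 FPKM, n = 1), knockout duodenal tumours (458 ± 170 FPKM) and knockout colon (403 ± 137 FPKM) came next, of which the last 3 overlap in turn. Knockout ileum tumours (190.4 ± 4.03 FPKM), wildtype (171 ± 18.3 FPKM), knockout (138 ± 4.82 FPKM) and heterozygous (93.1 ± 12.2 FPKM) colon tumours closed the order without overlap between neighbours. The heterozygous tumours were read in run 1 only and the other ApcMin tumours in run 2 only. For H2-Ob the order was led by wildtype colon (8.32 ± 1.78 FPKM), the Apc wildtype colon tumour (6.79 FPKM) and knockout duodenum (6.13 ± 7.19 FPKM). The 6 ApcMin tumour groups came last, each overlapping with the next.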

How the data were processed

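RNA sequencing of 23 mouse specimens was analysed from one deposited table of FPKM per gene, which the authors made with TopHat2 2.0.13, Cuffnorm and build mm10, per the submitters' processing notes. Its 68 columns are lanes of 2 sequencing runs, and 11 specimens are in both runs. Columns were averaged per specimen, and log2(FPKM + 1) was computed here. Depth in reads is unknown; column sums ran from 476233 to 801309 FPKM. The 14098 genes that reached 1 FPKM in 2 specimens or more were fitted with limma 3.58.1 (R 4.3.3) on group means with a trended prior, two-sided, Benjamini-Hochberg adjusted over all of them, threshold 0.05. Groups of 2 specimens give an exact permutation test no p under 0.333. Comparisons with heterozygous tumours used run 1, those of ApcMin colon tumours with normal colon used run 2, and the others used all columns. The p-values rest on a spread between specimens pooled over groups, and the tumours of an ApcMin group share 1 animal. They do not measure the spread between animals, and the animal block takes differences between animals out.

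The wildtype duodenum specimens differed over genes by an SD of 0.103 in run 1, against 0.113 from lanes (1.10 times the lane value in run 2 and 2.01 to 5.99 times in other groups), and were merged, except in fits with a block. Normal colon and duodenum share animals by their labels; deviations of same-numbered specimens correlated at r = 0.0332 in knockout and 0.0103 in wildtype mice. All 10 members are named; of a described list, at most 4 genes past the threshold are named, those of smallest p. The members and lists were chosen with earlier results of these data known. In simulated data the fits recovered 49 to 82 of 100 genes changed 2-fold and 81 to 99 of 100 changed 4-fold. Noise there was normal and independent, and changed genes were drawn only from those with a mean log2(FPKM + 1) above 2. H2-DMb2, H2-Oa, H2-Ob and Ciita, with medians of 1.65, 1.01, 0.634 and 2.02 FPKM, lie below that. The rates are therefore not those for the members, and an uncalled member may still have changed. Each fit was repeated without the filter, after quantile normalisation, with a pseudocount of 0.1 and on the compared groups alone. Where they applied, single runs, replicate blocks, wildtype duodenum unmerged and fits without each specimen were added. Comparisons with wildtype colon that used run 1 columns were also repeated without the run 1 library of wildtype colon 2. An interaction of organ and Cftr label in ApcMin tumours, and a comparison with normal duodenum of both genotypes, were added after the data were seen.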

Additional observations from a re-analysis of the deposited data

Results flagged for a closer look

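In ApcMin mice the difference with Cftr label had opposite signs in colon and ileum tumours for a pair of members, in every tumour, but the test of the difference did not pass. H2-DMb1 was at 6.999 and 6.72 FPKM in knockout and 6.54 and 5.09 FPKM in wildtype colon tumours, and at 7.56 and 8.45 FPKM in knockout and 26.4 and 27.0 FPKM in wildtype ileum tumours. The change in ileum minus that in colon was -1.84 on the log2 scale (limma, adjusted p = 0.935). H2-DMb2 was at 0.860 and 1.08 FPKM against 0.624 and 0.386 FPKM in colon, and at 1.06 and 0.624 FPKM against 1.22 and 1.07 FPKM in ileum, a difference of -0.62 (limma, adjusted p = 0.941). For H2-DMb2 the ileum values of 1.06 FPKM in knockout and 1.07 FPKM in wildtype nearly touch, at a low level. The pair was picked from the members by this pattern. The share of all tested genes with the same pattern was not counted, so how often it arises without a difference is unknown. The genes of the pair share sequence, and each genotype is 1 animal.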

How the results depend on the processing

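Of 195 alternative values of the number of members called, 166 stayed within 1.5 times the value reported and 29 did not. Most comparisons called no member in the main fit, and an alternative that again called no member counts among the 166. The tally therefore says little about how stable the calls were where members passed. Of 195 medians 177 moved by less than the spread and 18 by more. Of 624 alternative values of single genes, 514 kept direction and side of the threshold, 79 lost the call, 24 gained one and 7 changed sign. The cause of these moves was not tested. Fits on the compared groups alone and those without a specimen rest on fewer samples, and a group left with 1 specimen is assumed to vary like the others. Depth in reads per gene is unknown.

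With a pseudocount of 0.1 the members' median was 1.89 for ileum against colon tumours with wildtype Cftr and 0.38 for those labelled knockout, -1.98 for wildtype and -2.32 for heterozygous colon tumours against normal colon. In knockout colon tumours against normal colon 2 members then passed. Genes called became 10 for Cftr label in ileum tumours and 85 for knockout against heterozygous duodenal tumours. Without the filter genes called became 16 for Cftr label in normal colon, 30 in normal duodenum, 26 in colon tumours and 50 in ileum tumours, 5 for the difference between normal organs and 1 for that between tumour organs, and 0 members passed between wildtype ileum and colon tumours. Quantile normalisation gave a median of -0.22 for wildtype duodenum against colon and 0.32 for knockout ileum against colon tumours, and 1 member called for knockout duodenum against colon; run 2 alone also gave 1 member there. Run 2 alone gave 1 gene for Cftr label in duodenum and 1 for the difference between normal organs.

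Fitted on the compared groups alone, 6 members passed for Cftr label in ileum tumours (120 genes) and 6 for wildtype ileum against colon tumours (331 genes). In such fits 5 passed for knockout colon tumours against colon (701 genes) and 1 for heterozygous duodenal against colon tumours (3595 genes). Some members also passed for wildtype duodenum against colon, where the duodenum is 1 merged sample and the share of all tested genes is not given. Genes called were 343 for wildtype colon tumours against colon, 215 for knockout duodenal tumours against duodenum, 296 for the heterozygous ones, 0 for Cftr label in colon tumours and 0 for knockout against heterozygous duodenal tumours. Against normal duodenum of both genotypes, an alternative chosen after seeing the data, 1789 genes passed for knockout duodenal tumours. With wildtype duodenum as 2 specimens 31 genes passed for Cftr label in duodenum, and for heterozygous duodenal tumours 4083 genes and 1 member.

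Fits with a block also take the wildtype duodenum as 2 specimens, and the animal block uses normal tissue only, so these values do not give the effect of the block alone. With the replicate number as a block genes called were 30 for Cftr label in duodenum, 15 in colon tumours and 31 in ileum tumours, and 382 for knockout against heterozygous duodenal tumours; with the animal as a block 8130 passed for wildtype duodenum against colon, where unmerging without a block gave 6708. Under the block H2-DMa (1.72) also passed between wildtype ileum and colon tumours, and none of the 61 single-gene results lost its call.

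Leaving out each specimen in turn, members called ranged from 0 to 3 for the difference between normal organs, 0 to 10 for knockout duodenum against colon and 0 to 4 for knockout duodenal tumours against duodenum. The number of members ranged from 0 to 0 for wildtype ileum against colon tumours, 5 to 7 for wildtype ApcMin colon tumours against colon and 0 to 0 for knockout ApcMin colon tumours against colon. It also ranged from 1 to 6 for heterozygous colon tumours against colon, 0 to 3 for heterozygous duodenal tumours against duodenum and 0 to 7 for heterozygous duodenal against colon tumours. Medians over members ranged from -0.87 to -0.23 for Cftr label in normal colon, -0.090 to 1.91 for the difference between normal organs and -0.026 to 2.00 for knockout duodenum against colon. Further medians ranged from -0.0024 to 0.067 for Cftr label in colon tumours, 0.32 to 0.37 for knockout ileum against colon tumours and -1.20 to 0.56 for knockout against heterozygous duodenal tumours. Others ranged from 1.17 to 3.25 for heterozygous duodenal against colon tumours. Genes called ranged from 0 to 27 for Cftr label in normal colon, 0 to 21 for Cftr label in normal duodenum and 0 to 67 for the difference between normal organs. Called genes numbered 3237 to 4894 for wildtype duodenum against colon, 4268 to 5392 for knockout duodenum against colon and 418 to 1029 for knockout duodenal tumours against duodenum. The count of genes ran from 703 to 772 for the Apc wildtype colon tumour against colon, 1 to 1921 for Cftr label in colon tumours and 3 to 6 for Cftr label in ileum tumours. Over all genes it ran from 688 to 1937 for wildtype ileum against colon tumours, 809 to 1273 for knockout ileum against colon tumours and 2331 to 6624 for wildtype ApcMin colon tumours against colon. For other results it was 215 to 756 for knockout ApcMin colon tumours against colon, 4699 to 6762 for heterozygous colon tumours against colon and 25 to 1833 for knockout against heterozygous duodenal tumours. The remaining counts were 3193 to 6190 for heterozygous duodenal against colon tumours and 0 to 289 for the difference between tumour organs.

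H2-Ob changed sign with Cftr label in ileum tumours (0.024 without knockout tumour 2, 0.0071 without wildtype tumour 1, with a range of -0.049 to 0.024 over specimens left out). From colon to ileum in wildtype tumours it was -0.047 after quantile normalisation and -0.035 without wildtype colon tumour 1, within a range of -0.035 to 0.15. In heterozygous tumours, duodenum against colon, H2-DMb2 ranged from -0.31 without colon tumour 2 to 0.44 and was -0.016 without duodenal tumour 2, and H2-Ob ranged from -0.13 without colon tumour 2 to 0.30.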
